A study of Mus musculus with 9 samples.

Results

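The genes described here are the cytosolic glutathione S-transferases and their mitochondrial kappa relative (GST), the UDP-glucuronosyltransferases (UGT), the sulfotransferases (SULT), the aldehyde dehydrogenases (ALDH) and the alcohol dehydrogenases (ADH) of the mouse. They were taken by symbol from a count table of 23955 rows, leaving out pseudogene symbols, and came to 82 genes. Of these 21 were GST, 18 UGT, 18 SULT, 20 ALDH and 5 ADH genes. Gut epithelial organoids, which are small cultures of primary epithelium grown in a gel, were sequenced in 3 groups of 3 biological replicates each. MIN organoids were grown from Apc-mutated gut epithelium of normal appearance beside the tumors of APCmin/+ mice. Adenoma organoids came from adenomatous polyps of APCmin/+ mice, and sulindac organoids from such polyps with the added treatment of the non-steroidal anti-inflammatory drug (NSAID) sulindac. All 9 samples thus carried the Apc mutation and were grown in the same medium with Noggin, EGF, bFGF, R-spondin1 and B27. The age of the mice, the number of mice behind the replicates, and the dose, duration and vehicle of sulindac for the organoids are not given in the sources used here. If replicates shared a mouse or a line, the p-values measure only the spread between these cultures.

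These enzymes handle drugs, bile pigments, hormones, dietary chemicals and reactive aldehydes. ADH and ALDH enzymes oxidize alcohols to aldehydes and aldehydes to acids, and some of them turn retinol into retinal and then into retinoic acid. GST, UGT and SULT enzymes attach glutathione, glucuronic acid or sulfate to a compound, which makes it easier to export, and they draw on glutathione, UDP-glucuronic acid and the sulfate donor PAPS. In the small intestine many of them are abundant in differentiated enterocytes. NRF2, encoded by Nfe2l2, and the receptors AHR, PXR and CAR are known inducers of several of these genes.

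Sequencing depth was 30881206 to 48412477 counts per sample, of which the 10 leading genes made up between 5.15% and 7.48%. Levels are given in CPM, read counts scaled to a common library total, with TMM factors, and a floor of 3 counts in a library corresponded to 0.0641 to 0.1 CPM. The label of gut epithelium was checked by marker genes. The 5 epithelial markers summed to between 4461 and 6305 CPM in MIN, 2900 and 3724 in adenoma and 4004 and 4666 after sulindac. Cdh1, Krt8 and Vil1 were called lower in adenoma than in MIN, and Krt8 and Vil1 higher after sulindac than in adenoma. Of 5 mesenchymal markers, Col1a2, Col3a1 and Dcn had 0 counts in all samples, Pdgfra was called higher in adenoma than in MIN and Col1a1 lower after sulindac than in adenoma, and the summed level of the 5 lay between 0.385 and 0.763 CPM in MIN, 1.91 and 2.28 in adenoma and 0.764 and 1.08 after sulindac. The 5 leukocyte markers summed to 4.09 CPM at most. Nearly all of that was Itgam in MIN, which was called lower in both adenoma groups. The 3 endothelial markers summed to 0.572 CPM at most, and the 4 hepatocyte markers to 9.45 CPM at most. The 8 enterocyte markers had a summed level between 3240 and 4986 CPM in the MIN samples, between 66.1 and 93.6 in untreated adenoma and between 20.4 and 40.1 after sulindac, and all 8 were lower in adenoma than in MIN (false discovery rate, FDR, 1%). In bulk samples, fewer cells of a type and less RNA per cell cannot be told apart.

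Of the 82 members, 60 had enough counts to be tested in at least 1 comparison and 51 in all 3. The other 22 were left out of every test. Of these, 10 had 0 counts in all 9 samples, namely Sult1c1, Sult1e1, Sult2a1 to Sult2a7 and Sult3a1. A further 7 never exceeded 3 counts in a sample, namely Aldh1a2, Aldh8a1, Ugt1a10, Ugt2a1, Ugt2a2, Ugt2b37 and Ugt2b38. The remaining 5 were Gstt4, Sult5a1, Sult6b1, Ugt1a2 and Ugt1a5, none of which exceeded 0.487 CPM in any sample. Several members are near copies of each other, and 29 of the 82 shared over 10% of their 50-base stretches with transcripts of other genes. The values of such genes depend on how the authors' estimation divided shared reads, and the larger shares are given with the genes below. Those of Aldh3b2 (24.2%, mostly with Aldh3b3), Aldh6a1 (16.1%), Aldh5a1 (13.7%), Aldh1l2 (13.6%) and Gstt3 (12.5%) belong here too.

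As a group, the 82 genes took 0.861%, 0.885% and 0.926% of all counts in the MIN samples, 0.656%, 0.642% and 0.791% in the adenoma samples and 1.51%, 1.59% and 1.47% in the sulindac samples. The adenoma samples were the lowest and the sulindac samples the highest, with no overlap between groups. In the comparison of adenoma with MIN organoids, 60 members were tested by edgeR's quasi-likelihood test at an FDR of 1%. There, 32 members (53.3%) were lower in adenoma, against 20.1% of all 13744 genes tested, and 6 (10%) were higher, against 18.5% of all genes. Some had enough counts for this test only through MIN, among them Adh4, Adh6a, Gstk1, Sult1d1, Sult4a1, Ugt1a9, Ugt2a3, Ugt2b36 and Ugt2b5. For such genes a call of higher could hardly arise, and all of those named were lower. They count in the family shares below as well. The same count rule applied to all genes. The median log2 fold change was -0.99 over the members and -0.01 over all genes. The 6 higher members were Aldh3a1, Aldh3b2, Aldh4a1, Gsto2, Gstp1 and Gstp2. Only 3 members were higher when either MIN 1 or MIN 2 was left out, since Aldh3b2, Gsto2 and Gstp1 lost their call. The 32 lower members numbered 29 to 34 when each sample was left out in turn.

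Sulindac-treated adenoma organoids were compared with untreated ones over 51 tested members. Here 26 members (51%) were higher after sulindac, against 8.32% of all 12962 genes, and 6 (11.8%) were lower, against 9.1%. The median log2 fold change was 0.68 over the members and -0.01 over all genes. The 26 include Adh7, which was singled out for its level after sulindac; without it, 25 of 50 were higher. The 6 lower members were Aldh1a3, Aldh1b1, Aldh5a1, Aldh7a1, Gstz1 and Sult2b1, a share close to that of all genes. The lower members fell to 3 when Sulindac 1, Sulindac 2 or Sulindac 3 was left out. Scaling by library size alone moved the median of all genes in this comparison from -0.01 to -0.18 and the share of higher genes among all called genes from 47.8% to 23.3%, while 23 members were still higher and 6 lower. In adenoma against MIN, that scaling moved the median of all genes to 0.12 and the share of higher calls from 48% to 57.7%, with 7 members higher and 32 lower.

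Set against MIN, sulindac-treated adenoma organoids had 19 of 60 members higher (31.7%, against 23% of 13551 genes) and 23 lower (38.3%, against 26.8%). Without Adh7, 18 of 59 (30.5%) were higher. The 23 lower members include the genes named above that had enough counts only through MIN. The median log2 fold change over the members was 0.02. These 3 comparisons share their samples in pairs, so that a high or low adenoma sample moves adenoma against MIN and sulindac against adenoma in opposite directions. For that reason each gene is described below by its level in every sample.

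**Figure D1:**
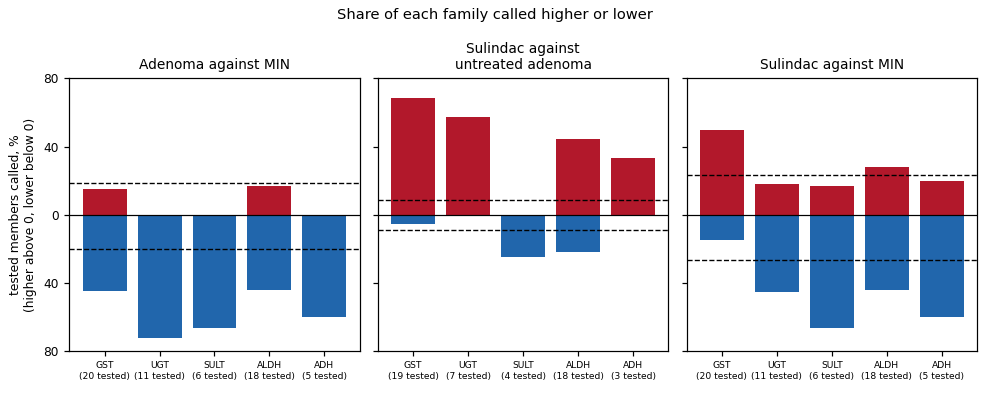
Percentage of the tested members of each family called higher (red, above 0) or lower (blue, below 0) at an FDR of 1% in each comparison, with dashed lines at the percentage over all genes tested. In adenoma against MIN the lower share is above its line in all 5 families, and after sulindac the higher share of GST genes is 68.4% against 8.32% over all genes. These lower shares include genes that had enough counts to be tested only through MIN. In both comparisons with sulindac the red ADH bar is Adh7 alone, which was singled out for its level after sulindac, so that bar is no test.

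**Figure D2:**
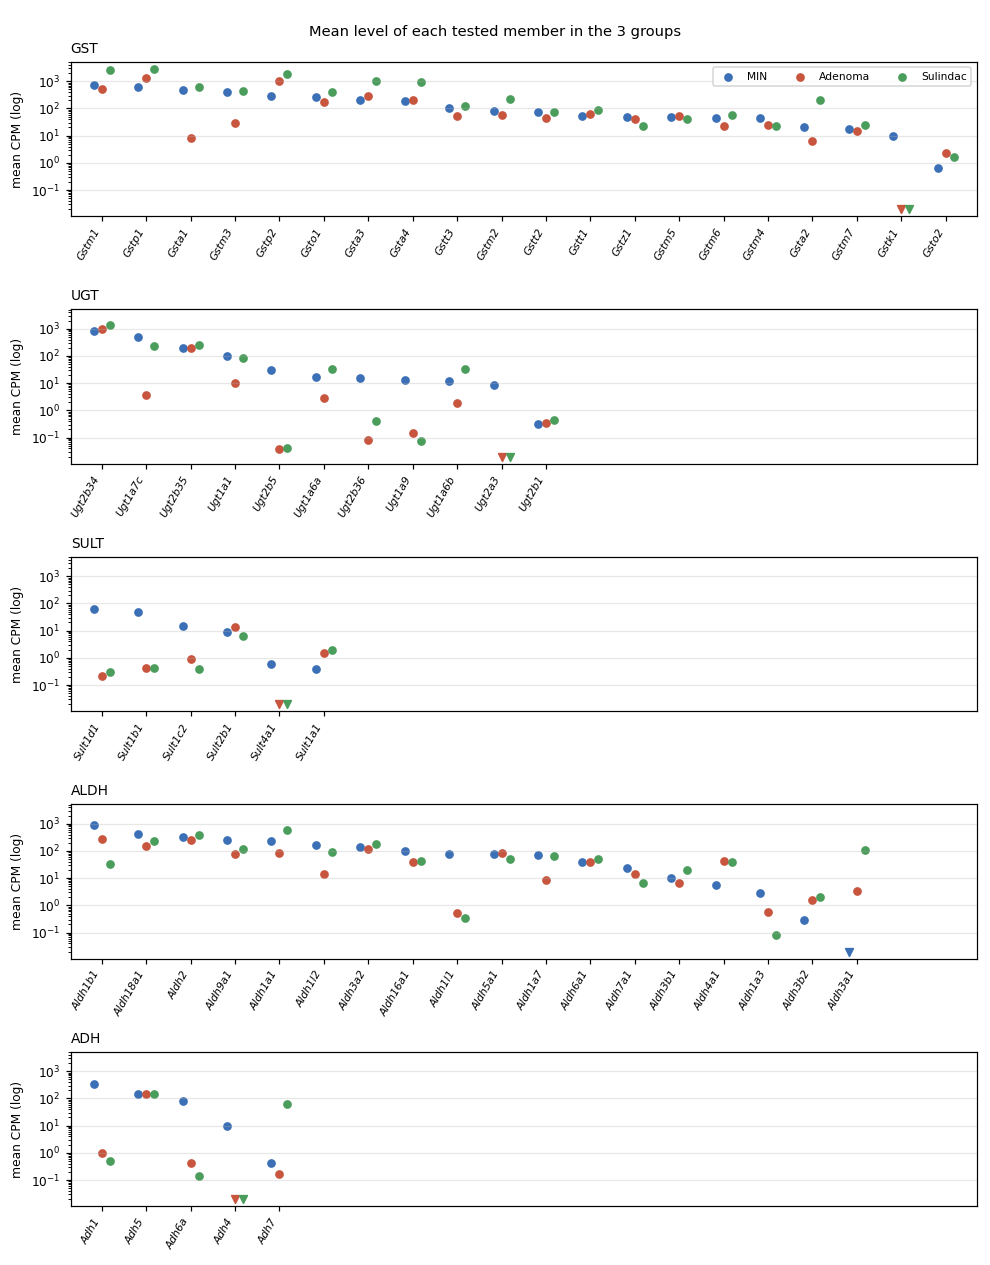
Mean CPM of the 60 tested members (n = 3 per group, logarithmic axis) in MIN, adenoma and sulindac organoids, by family and ordered by the MIN level. Triangles stand at 0.02 CPM for means below that value; several UGT, SULT and ADH genes with 10 CPM or more in MIN lie under 1 CPM in both adenoma groups, while most GST genes stay above 10 CPM throughout.

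The GST enzymes form classes named by Greek letters. Among 20 tested GST genes, 9 (45%) were lower and 3 (15%) higher in adenoma than in MIN, against 20.1% and 18.5% of all genes. Among 19 tested after sulindac, 13 (68.4%) were higher and 1 lower (5.26%), against 8.32% and 9.1%. Gsta1, an alpha-class transferase of the intestine, was at 547, 493 and 399 CPM in MIN, at 11.8, 3.21 and 9.31 CPM in adenoma and at 656, 469 and 689 CPM after sulindac. The adenoma samples lay far below both other groups, which overlapped each other. Its log2 fold change was -5.88 ± 0.45 (SE) in adenoma against MIN (edgeR adjusted p = 1.02e-05) and 6.23 ± 0.45 after sulindac (edgeR adjusted p = 1.18e-04). Between sulindac and MIN the log2 fold change of 0.33 ± 0.17 did not pass the test (edgeR adjusted p = 0.127). Gsta1 shared 90.5% of its stretches with other genes, mostly with the predicted gene Gm3776, so its level may hold reads of its copies. Gsta2 was at 21.7, 19.3 and 23.5 CPM in MIN, at 8.65, 3.41 and 7.75 CPM in adenoma and at 209.9, 190.4 and 218 CPM after sulindac. Here the sulindac samples were the highest of all, with a log2 fold change of 4.98 ± 0.31 against adenoma (edgeR adjusted p = 7.17e-05) and 3.26 ± 0.11 against MIN (edgeR adjusted p = 6.49e-08). Gsta2 shared 49.8% of its stretches, chiefly with Gsta1.

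Gsta3 and Gsta4 share little or no sequence with other genes at this length. Gsta3 was at 155, 204 and 259 CPM in MIN, at 294, 234 and 332 CPM in adenoma and at 879, 1179 and 1063 CPM after sulindac. MIN and adenoma overlapped, and the sulindac samples stood above both. Gsta4, whose enzyme is known for conjugating the lipid aldehyde 4-hydroxynonenal, was at 179, 176 and 223 CPM in MIN, at 205, 160.1 and 237 CPM in adenoma and at 1048, 865 and 829 CPM after sulindac. The log2 fold changes after sulindac were 1.87 ± 0.16 for Gsta3 (edgeR adjusted p = 1.74e-04) and 2.2 ± 0.17 for Gsta4 (edgeR adjusted p = 1.28e-04).

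The mu class showed a split among neighbouring genes. Gstm1 was at 599.9, 647 and 1002 CPM in MIN, at 511, 495 and 599.9 CPM in adenoma and at 2600, 3073 and 2309 CPM after sulindac. Its MIN and adenoma samples touched, and each sulindac sample exceeded all of them, with a log2 fold change of 2.32 ± 0.14 against adenoma (edgeR adjusted p = 7.17e-05). Gstm3 was at 357, 391 and 510.4 CPM in MIN, at 36.2, 19.1 and 30 CPM in adenoma and at 436, 490.1 and 378 CPM after sulindac. Its adenoma samples formed the low group, 3.88 log2 units under MIN (SE 0.26, edgeR adjusted p = 4.69e-06) and 3.94 under sulindac (SE 0.23, edgeR adjusted p = 6.15e-05). Gstm6 was at 45.3, 43.8 and 47.1 CPM in MIN, at 21.8, 17.6 and 28.5 CPM in adenoma and at 57, 62.3 and 54.2 CPM after sulindac, so that adenoma was again the low group, while Gstm2 ranged from 44.1 to 98.7 CPM in MIN and adenoma and from 191 to 251 CPM after sulindac. Gstm4 was lower in adenoma than in MIN and was not called after sulindac, with 21.5 to 28.8 CPM in the 6 adenoma and sulindac samples. Gstm5 ranged from 37.8 to 63.6 CPM and Gstm7 from 12.6 to 28.9 CPM over all 9 samples, and neither was called in any comparison. Gstm3 shared 28.8% and Gstm1 18.9% of their stretches with other genes, mainly mu-class pseudogenes.

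Gstp1, the pi-class transferase that is abundant in many tumors, rose in both comparisons. It was at 566, 572 and 766 CPM in MIN, at 1100, 1059 and 1864 CPM in adenoma and at 2742, 3168 and 2607 CPM after sulindac, which puts the 3 groups in that order without overlap. The log2 fold change was 1.08 ± 0.24 in adenoma against MIN (edgeR adjusted p = 0.00516) and 1.09 ± 0.21 after sulindac (edgeR adjusted p = 0.00578). The first call was lost without MIN 1 or MIN 2, where log2 fold changes over all left-out samples were 0.77 to 1.24. The second was kept in 1 of 6 fits that each left out a sample, with 0.95 to 1.39. Gstp2 was at 208, 222 and 431 CPM in MIN, at 907, 791 and 1454 CPM in adenoma and at 2055, 1851 and 1537 CPM after sulindac. Its groups did not overlap either, but of these steps only the rise in adenoma passed the test (log2 fold change 1.88 ± 0.33, edgeR adjusted p = 0.00145), and the log2 fold change after sulindac was 0.80 ± 0.22 (edgeR adjusted p = 0.0242). These neighbouring genes share 33.7% of the stretches of Gstp1 and 54.3% of those of Gstp2. Per kilobase of transcript, Gstp1 was the highest of all members in each group, at 773 CPM per kilobase in MIN, 1633 in adenoma and 3458 after sulindac, against 582, 415 and 2064 for Gstm1 and 548, 9.27 and 691 for Gsta1.

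Of the omega class, Gsto1, a thiol transferase, was at 263, 285 and 248 CPM in MIN, at 179, 141 and 189 CPM in adenoma and at 408, 393 and 362 CPM after sulindac. The groups did not overlap, and it fell by 0.64 on the log2 scale in adenoma and rose by 1.20 after sulindac. Its drop in adenoma was not called without MIN 1, MIN 2 or Adenoma 2. Gsto2 stayed at or under 3.01 CPM and was higher in adenoma than in MIN, with 0.511, 0.406 and 1.01 CPM in MIN and 2.02, 2.15 and 3.01 CPM in adenoma. Gstt2 and Gstt3, of the theta class, were both lower in adenoma and higher after sulindac, with log2 fold changes of 0.77 ± 0.16 and 1.25 ± 0.18 in the latter. Gstt2 kept its call in 1 of 6 left-out fits in each comparison, and Gstt3 lost its call in adenoma without MIN 2 or Adenoma 3. Gstt1 rose by 0.61 ± 0.12 log2 units after sulindac, a call kept in 2 of 6 such fits.

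Gstz1, the zeta-class enzyme that is maleylacetoacetate isomerase of tyrosine breakdown, was at 47, 52.6 and 45.5 CPM in MIN, at 39.8, 42 and 40.4 CPM in adenoma and at 23.4, 24 and 21.8 CPM after sulindac. All 3 sulindac samples lay below the other 6, and its log2 fold change against adenoma was -0.81 ± 0.09 (edgeR adjusted p = 6.57e-04). Gstk1, the kappa-class enzyme of mitochondria and peroxisomes, had 449, 457 and 357 counts in MIN, 0, 0 and 1 in adenoma and 0, 0 and 1 after sulindac. MIN exceeded adenoma by a ratio of 1074 (95% counting interval 192.5 to 42465) and sulindac by 983.9 (176.3 to 38894), which rest on 1 count in each of the low groups.

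**Figure D3:**
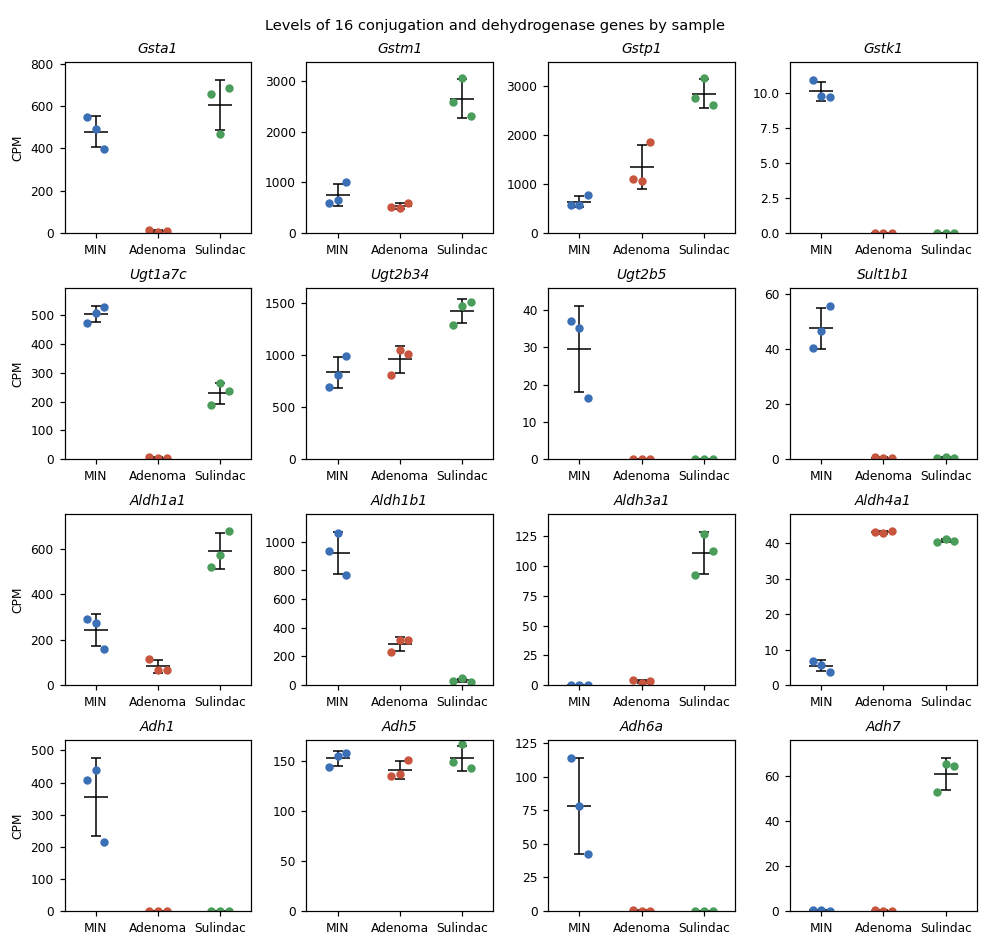
CPM in each of the 9 samples for 16 members, with points for samples and black bars for the mean ± SD (n = 3), each panel on its own linear axis from 0. Gsta1, Ugt1a7c and Aldh1a1 are low in adenoma alone, Gstk1, Ugt2b5, Sult1b1, Adh1 and Adh6a are near 0 in both adenoma groups, Aldh1b1 is lowest after sulindac, and Aldh3a1 and Adh7 are highest after sulindac.

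Glucuronidation genes divided by locus. The Ugt1a genes use alternative first exons joined to shared later exons, so that 52.1% to 80.2% of the stretches of the tested Ugt1a genes were shared and reads of the common exons cannot be assigned with certainty. Of 11 tested UGT genes, 8 (72.7%) were lower in adenoma than in MIN and none higher, against 20.1% and 18.5% of all genes. Of 7 tested after sulindac, 4 (57.1%) were higher and none lower, against 8.32% and 9.1%. Those 4 were all Ugt1a genes. Ugt1a7c was at 474, 508 and 529 CPM in MIN, at 5.76, 2.60 and 2.78 CPM in adenoma and at 189, 263 and 235 CPM after sulindac. The 3 groups were clearly apart, with a log2 fold change of -7.08 ± 0.32 in adenoma (edgeR adjusted p = 5.57e-07), 5.95 ± 0.32 after sulindac (edgeR adjusted p = 3.99e-05) and -1.14 ± 0.12 between sulindac and MIN (edgeR adjusted p = 6.31e-05). Ugt1a1, the bilirubin-conjugating enzyme, was at 95.1, 103 and 113 CPM in MIN, at 7.58, 13.2 and 9.16 CPM in adenoma and at 75.1, 92 and 81.2 CPM after sulindac. Adenoma was again the low group, by 3.37 log2 units against MIN and 3.06 against sulindac, each with an SE of 0.20.

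The phenol-conjugating genes Ugt1a6a and Ugt1a6b also had their lowest levels in adenoma. Ugt1a6a was at 22.6, 17.9 and 8.66 CPM in MIN, at 3.45, 2.63 and 2.23 CPM in adenoma and at 20.2, 51.1 and 30.3 CPM after sulindac. Ugt1a6b was at 14.4, 12.8 and 8.12 CPM in MIN, at 1.01, 0.782 and 3.84 CPM in adenoma and at 25.9, 46.2 and 24.8 CPM after sulindac. In both genes every adenoma sample was below every other sample, and the rise after sulindac was 3.61 ± 0.34 and 4.12 ± 0.54 log2 units. Ugt1a6b was also higher after sulindac than in MIN, by 1.45 ± 0.29 log2 units (edgeR adjusted p = 0.00253), a call lost without MIN 2 or MIN 3. The drop of Ugt1a6b in adenoma lost its call without MIN 1, MIN 2 or Adenoma 1. Ugt1a9 differed from these neighbours: it was at 19.2, 13.7 and 4.96 CPM in MIN and did not exceed 0.231 CPM in the 6 adenoma and sulindac samples.

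Among the Ugt2 genes, those with low levels in adenoma were also low after sulindac. Ugt2b5 was at 37.1, 35.3 and 16.4 CPM in MIN and had 4 counts in all adenoma samples and 4 in all sulindac samples. The fitted log2 fold changes against MIN were -9.50 ± 0.57 and -9.38 ± 0.59 (edgeR adjusted p = 2.68e-06 and 4.31e-06), and 41.7% of its stretches are shared with close copies. Ugt2a3 was at 9.9, 10.1 and 6.43 CPM in MIN and had 1 count in adenoma and 0 after sulindac. MIN was thus higher than sulindac at least 94.9-fold, taking a floor of 3 counts in each library. Ugt2b36 was at 16.7, 17.4 and 11.7 CPM in MIN and at most 0.467 CPM elsewhere. The most abundant UGT gene, Ugt2b34, was not among them, with 694, 803 and 992 CPM in MIN, 809.8, 1047 and 1009 CPM in adenoma and 1284, 1472 and 1501 CPM after sulindac. Its sulindac samples were the highest, and its log2 fold change was 0.77 ± 0.14 against MIN (edgeR adjusted p = 0.00128) and 0.58 ± 0.13 against adenoma (edgeR adjusted p = 0.0116), the latter outside the 1% FDR. Ugt2b35 ranged from 167 to 295 CPM and Ugt2b1 from 0.073 to 0.64 CPM over the 9 samples with no call.

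Sulfotransferases were mostly silent in these cultures, with 12 of 18 genes left out for low counts. Of the 6 tested, 4 (66.7%) were lower in adenoma than in MIN and none higher, against 20.1% and 18.5% of all genes. Of 4 tested after sulindac none was higher and 1 was lower, against 8.32% and 9.1%. So few genes cannot tell these last counts from the shares of all genes. Sult1b1, which sulfates phenols and thyroid hormone, was at 40.5, 46.4 and 55.5 CPM in MIN, at 0.674, 0.223 and 0.347 CPM in adenoma and at 0.467, 0.55 and 0.204 CPM after sulindac. Sult1d1, which acts on catecholamines, was at 47.9, 57.4 and 86.6 CPM in MIN, at 0.197, 0.223 and 0.231 CPM in adenoma and at 0.4, 0.336 and 0.204 CPM after sulindac. The MIN samples of both genes lay far above all others, and the adenoma and sulindac samples overlapped. Log2 fold changes in adenoma against MIN were -6.82 ± 0.31 for Sult1b1 (edgeR adjusted p = 5.39e-07) and -8.18 ± 0.32 for Sult1d1 (edgeR adjusted p = 2.60e-07). Sult1c2 was at 8.34, 12.6 and 23.4 CPM in MIN and did not exceed 1.43 CPM in the other samples. Sult4a1 had 78 counts over the MIN samples and none in the other 6, at least 7.28-fold higher than in adenoma by the same floor.

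Sult2b1, the cholesterol sulfotransferase of stratified and other epithelia, was the exception in level. It was at 8.42, 8.67 and 10.5 CPM in MIN, at 10.7, 12.5 and 19.3 CPM in adenoma and at 6.57, 6.63 and 5.82 CPM after sulindac. The sulindac samples were the lowest of the 9, with a log2 fold change of -1.15 ± 0.22 against adenoma (edgeR adjusted p = 0.0049), a call lost without any 1 of the sulindac samples, with values between -1.31 and -0.87. Sult1a1 was at 0.365, 0.235 and 0.545 CPM in MIN, at 0.983, 0.894 and 2.57 CPM in adenoma and at 1.17, 1.38 and 3.34 CPM after sulindac. It was not called in adenoma against MIN (edgeR adjusted p = 0.0115) without a replicate block and was called with one, and it was called higher after sulindac than in MIN, although not without MIN 1 or MIN 2.

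Of the 18 tested aldehyde dehydrogenase genes, 8 (44.4%) were lower and 3 (16.7%) higher in adenoma than in MIN, against 20.1% and 18.5% of all genes, the latter a like share. After sulindac 8 (44.4%) were higher and 4 (22.2%) lower, against 8.32% and 9.1%. Aldh1b1, a mitochondrial acetaldehyde and retinal dehydrogenase, changed in the same direction at both steps. It was at 937, 1060.0 and 768 CPM in MIN, at 228, 315 and 318 CPM in adenoma and at 27.7, 46.5 and 23.9 CPM after sulindac. The groups were far apart, with log2 fold changes of -1.68 ± 0.18 (edgeR adjusted p = 7.90e-05) and -3.13 ± 0.25 (edgeR adjusted p = 1.48e-04), and its sulindac mean of 32.7 CPM was 0.0355 times the MIN mean of 921 CPM.

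Aldh1a1, Aldh1a7 and Aldh1a3 belong to the cytosolic ALDH1A subfamily, which is known for retinal oxidation. Aldh1a1 was at 289, 275 and 159.7 CPM in MIN, at 113, 66 and 66.6 CPM in adenoma and at 522, 574.5 and 679 CPM after sulindac. Adenoma was the lowest and sulindac the highest group, with a log2 fold change of -1.56 ± 0.28 (edgeR adjusted p = 0.00151) and then 2.86 ± 0.23 (edgeR adjusted p = 1.48e-04). The first of these calls was lost without Adenoma 3, where log2 values over the left-out samples lay between -1.86 and -1.42. Its neighbour Aldh1a7 was at 63, 75.7 and 70.8 CPM in MIN, at 11, 5.87 and 7.86 CPM in adenoma and at 56.9, 65.1 and 80.7 CPM after sulindac. Only adenoma stood apart, by 3.08 ± 0.22 and 3.04 ± 0.24 log2 units, and these genes share 7.49% of the stretches of Aldh1a7. Aldh1a3 was at 1.26, 0.919 and 6.26 CPM in MIN, at 0.533, 0.698 and 0.434 CPM in adenoma and at 0.1, 0.0611 and 0.0873 CPM after sulindac, a group of 8 counts in all. The sulindac samples were the lowest, and its log2 fold change of -2.69 ± 0.45 against adenoma (edgeR adjusted p = 0.00283) passed the test, as it did in 2 of 6 fits with 1 sample left out.

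Aldh3a1, an aldehyde dehydrogenase of cornea and stomach that is a classic target of AHR, had 0, 0 and 1 counts in MIN, 156, 69 and 125 in adenoma and 2764, 4159 and 3872 after sulindac. In CPM this was 4.38, 1.93 and 3.61 in adenoma and 92.1, 127 and 113 after sulindac, so each group lay above the last. The log2 fold change after sulindac was 5.07 ± 0.27 (edgeR adjusted p = 3.99e-05), and adenoma exceeded MIN by a ratio of 412 (95% counting interval 73.4 to 16299) that rests on 1 MIN count. It shares no 50-base stretch with another gene. Aldh3b1 was at 11.8, 11.8 and 7.95 CPM in MIN, at 7.58, 4.89 and 6.71 CPM in adenoma and at 21.8, 20.4 and 19.8 CPM after sulindac, and rose by 1.70 ± 0.17 log2 units against adenoma. Aldh3a2, the fatty aldehyde dehydrogenase, rose by 0.67 ± 0.08, from between 112 and 116 CPM to between 175 and 192 CPM. Aldh3b2 was higher in adenoma than in MIN, from 0.438, 0.385 and 0.0817 CPM to 2.64, 1.03 and 1.21 CPM, a call kept in 1 of 6 left-out fits.

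Aldh4a1, which completes proline breakdown, was at 6.91, 5.77 and 3.73 CPM in MIN, at 43, 42.7 and 43.4 CPM in adenoma and at 40.4, 41.1 and 40.5 CPM after sulindac. Both adenoma groups stood above MIN, by 2.97 ± 0.21 and 2.88 ± 0.20 log2 units (edgeR adjusted p = 6.87e-06 and 5.69e-06), and the change after sulindac was not called. The gene shares 30% of its stretches with the predicted gene Gm21969. Aldh18a1, which makes the proline precursor, was at 431, 448 and 431 CPM in MIN, at 159.7, 182 and 98.1 CPM in adenoma and at 206, 258 and 241 CPM after sulindac, with the drop in adenoma called and the later difference not.

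The folate enzymes ran apart from each other. Aldh1l1, the cytosolic 10-formyltetrahydrofolate dehydrogenase, was at 82, 85.1 and 72 CPM in MIN and at 1.03 CPM or less in the other 6 samples. Its mitochondrial counterpart Aldh1l2 was at 123, 113 and 255 CPM in MIN, at 14, 23 and 6.04 CPM in adenoma and at 81.4, 74.7 and 124.5 CPM after sulindac. Aldh1l2 thus fell by 3.51 on the log2 scale in adenoma (SE 0.50, edgeR adjusted p = 4.20e-04) and rose by 2.71 after sulindac (SE 0.43, edgeR adjusted p = 0.00235), a call lost without Sulindac 3.

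Aldh2, the main acetaldehyde dehydrogenase, was at 273, 337 and 389.6 CPM in MIN, at 243, 203 and 284 CPM in adenoma and at 376, 425 and 383 CPM after sulindac. It rose after sulindac by 0.71 ± 0.13 log2 units (edgeR adjusted p = 0.00397), kept in 1 of 6 left-out fits. Aldh9a1 was at 241, 283.5 and 241 CPM in MIN, at 82, 76.2 and 74.5 CPM in adenoma and at 127, 121 and 95.9 CPM after sulindac. It fell by 1.72 on the log2 scale in adenoma and regained 0.57 ± 0.12 after sulindac, the latter also kept in 1 of 6 such fits. Aldh5a1, succinate semialdehyde dehydrogenase, was at 92.7, 92.7 and 71.2 CPM in adenoma and at 47.7, 60.2 and 47.9 CPM after sulindac, a drop kept in 1 of 6. Aldh7a1, of lysine breakdown, was at 30.7, 23.8 and 18.6 CPM in MIN, at 12.3, 14.6 and 16.2 CPM in adenoma and at 6, 7.28 and 6.17 CPM after sulindac. The sulindac samples were the lowest, by 1.14 ± 0.15 log2 units against adenoma (edgeR adjusted p = 0.00112). Aldh6a1 ranged from 36.2 to 52.6 CPM over all 9 samples and was not called, and Aldh16a1 was lower in adenoma (37.2 to 44.1 CPM) than in MIN (96.1 to 109.5 CPM).

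Alcohol dehydrogenases were the smallest family, and 3 of its 5 genes (60%) were lower in adenoma than in MIN, against 20.1% of all genes. Adh1, the main cytosolic ethanol and retinol dehydrogenase, was at 409.5, 438 and 216 CPM in MIN, at 0.758, 0.95 and 1.30 CPM in adenoma and at 0.333, 0.55 and 0.582 CPM after sulindac. Adh6a was at 114, 78 and 42.3 CPM in MIN and at 0.646 CPM or less elsewhere. Adh4, which also acts on retinol, had 1253 counts over the MIN samples, 0 in adenoma and 1 after sulindac, at least 115-fold higher in MIN than in adenoma by the floor of 3 counts a library. In these 3 genes MIN stood far above both adenoma groups. The fitted log2 fold change of Adh1 was -8.46 ± 0.37 in adenoma (edgeR adjusted p = 4.45e-07) and -1.01 ± 0.35 after sulindac (edgeR adjusted p = 0.051). Adh5, the glutathione-dependent formaldehyde dehydrogenase found in most cells, was at 144, 155 and 158 CPM in MIN, at 134.5, 136 and 151 CPM in adenoma and at 148.5, 166 and 142 CPM after sulindac. Its groups overlapped, and no comparison called it, with log2 fold changes of -0.11 ± 0.10 and 0.12 ± 0.09.

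Adh7, a retinol-active alcohol dehydrogenase of stomach and esophagus lining, was the ADH gene with the opposite pattern. It had 19, 30 and 8 counts in MIN, 15, 3 and 0 in adenoma and 1584, 2132 and 2219 after sulindac. In CPM this was 0.462, 0.641 and 0.218, then 0.421, 0.0838 and 0, and then 52.8, 65.2 and 64.5. All 6 untreated samples lay under 1 CPM, and all 3 sulindac samples lay far above them. Since the gene was singled out for this level, the difference is given as a description without a test. The mean of 60.8 ± 6.97 CPM (SD, n = 3) after sulindac compared with 0.168 ± 0.223 in adenoma and 0.44 ± 0.212 in MIN. Between adenoma and MIN the log2 fold change was -1.38 ± 0.85 (edgeR adjusted p = 0.203). It was -3.29 without Adenoma 1 and -0.81 without Adenoma 3, and was not called in either case. Per kilobase of transcript, Adh7 came to 17.7 CPM after sulindac, against 95 for Adh5 and 64 for Aldh3a1 in the same samples. Because stomach and esophagus are the known sites of Adh7, markers of these tissues were read beside it. The 11 gastric markers had a summed level between 6.37 and 8.48 CPM in the MIN samples, between 1.99 and 10.3 in untreated adenoma and between 0.533 and 1.59 after sulindac. Single gastric markers went opposite ways. Tff2 and Muc6 were called higher in adenoma than in MIN and lower after sulindac than in adenoma. Gkn3 and Atp4a were called lower than in MIN in both adenoma groups. The 5 squamous markers had a summed level between 0.662 and 2.14 CPM in the MIN samples, between 31 and 43.1 in untreated adenoma and between 86.9 and 97.4 after sulindac, of which Krt4 made up nearly all. Krt4 and Krt5 were called higher after sulindac than in adenoma, with log2 fold changes of 1.33 and 2.88, and Krt4, Krt5 and Krt14 higher than in MIN, while Krt13 and Trp63 had at most 3 counts in any sample. Whether gastric or squamous cells were present, and their part in the Adh7 level, was not tested.

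**Figure D4:**
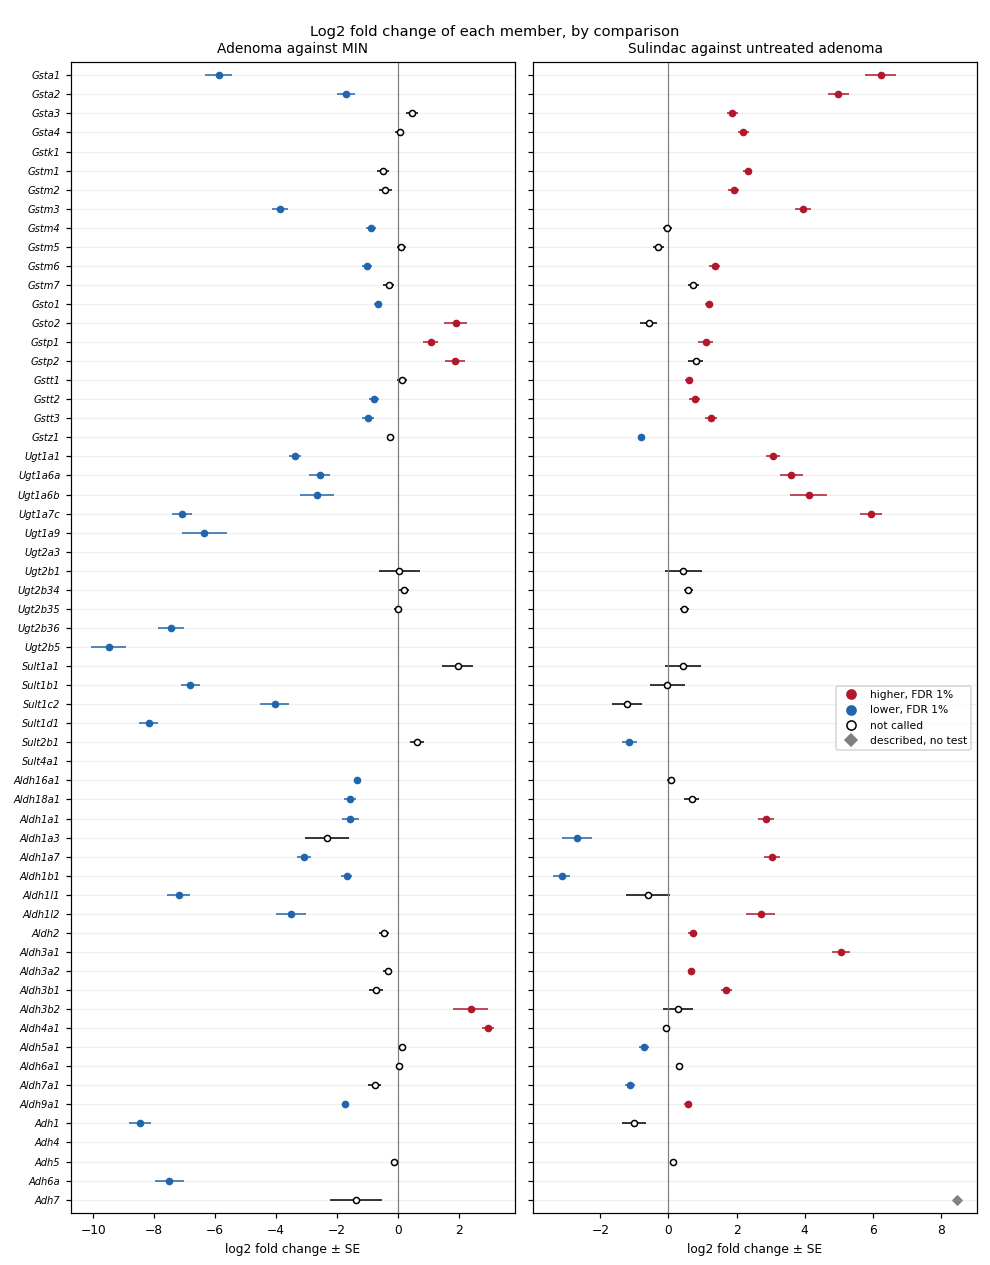
Log2 fold change ± SE of each member, adenoma against MIN on the left and sulindac-treated against untreated adenoma on the right; filled points pass an FDR of 1% and blank rows were not tested. Adh4, Aldh3a1, Gstk1, Sult4a1 and Ugt2a3 are not drawn on the left because 1 group there had 3 counts or fewer, and Adh7 is drawn on the right without an error bar at 8.46.

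Promoter sequence was read for the members that moved together after sulindac. RefSeq promoter windows on GRCm38.p6, from 250 bases before to 50 after the start, were found for 69 of the 82 members. The core of the antioxidant response element that NRF2 binds, TGACNNNGC on either strand, stood in 6 of these 69 and in 12.4% of all 32851 windows. Among the 26 members higher after sulindac, 20 had a window and 2 of those (10%) held the core, namely Gsta3 and Aldh9a1. The AHR-binding core GCGTG stood in 7 of the 20 (35%), Adh7 among them, and in 32.4% of all windows. Members were counted by gene, with a match in any of its windows, while the shares over all were counted by window. With that difference in unit, both shares were near those over all windows. Gsta3 lies on chromosome 1, Gsta1 on chromosome 9 and Adh7 on chromosome 3. The window of Gsta3 is shown because it is the most abundant member that holds the NRF2 core. Those of Gsta1 and Adh7 do not hold it. Gsta1 had the largest log2 fold change after sulindac against adenoma with Adh7 set aside, and Adh7 was singled out for its level after sulindac. Letters are in lower case, with the NRF2 core in capitals, and run 5′ to 3′ on the plus strand.
Gsta3, chr1:21240335-21240634, core starting at position -121 from the start: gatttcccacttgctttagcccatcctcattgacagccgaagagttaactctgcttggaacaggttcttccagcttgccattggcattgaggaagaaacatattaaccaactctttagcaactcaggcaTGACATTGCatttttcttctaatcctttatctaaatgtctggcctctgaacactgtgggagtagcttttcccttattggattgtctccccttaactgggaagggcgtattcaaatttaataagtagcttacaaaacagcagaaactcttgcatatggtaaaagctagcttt
Gsta1, chr9:78230419-78230718: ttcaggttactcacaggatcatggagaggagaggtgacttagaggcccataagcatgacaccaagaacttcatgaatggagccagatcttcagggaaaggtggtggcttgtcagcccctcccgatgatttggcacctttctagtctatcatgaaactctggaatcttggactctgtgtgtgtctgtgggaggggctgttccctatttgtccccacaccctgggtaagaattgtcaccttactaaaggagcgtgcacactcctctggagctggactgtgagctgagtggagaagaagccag
Adh7, chr3:138217523-138217822: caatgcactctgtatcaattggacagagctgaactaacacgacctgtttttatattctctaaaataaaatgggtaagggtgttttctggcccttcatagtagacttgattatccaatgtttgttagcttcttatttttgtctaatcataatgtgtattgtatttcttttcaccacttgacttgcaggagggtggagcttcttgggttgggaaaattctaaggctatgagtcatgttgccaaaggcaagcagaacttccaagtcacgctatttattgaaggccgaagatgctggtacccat
A match is a description of the letters and not a site in use, and elements outside these windows were not read.

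The partner genes of these enzymes were counted from lists chosen with earlier results of these data known. Their counts are therefore a description and no independent test. Of 9 genes that supply glutathione and the other donors, 6 were higher and none lower after sulindac, against 8.32% and 9.1% of all genes. Their median log2 fold change was 1.28. Gclc, the catalytic subunit of the enzyme that limits glutathione synthesis, was at 213, 158.7 and 224 CPM in adenoma and at 2830, 2298 and 2833 CPM after sulindac. Its regulatory subunit Gclm had means of 78 ± 15.6 and 758 ± 35.1 CPM (SD, n = 3). The log2 fold changes were 3.75 ± 0.18 for Gclc and 3.29 for Gclm, and every sulindac sample was above every other sample in both genes. Ugdh, which makes UDP-glucuronic acid, had means of 489 ± 106, 193 ± 26.3 and 963 ± 24.4 CPM in MIN, adenoma and sulindac organoids, lower in adenoma and higher after sulindac. In adenoma against MIN, 4 of the 9 were lower and none higher, against 20.1% and 18.5% of all genes. The 4 were Gsr, Ugdh, Ugp2 and the PAPS synthase Papss2.

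Other detoxifying enzymes behaved alike in number. Of 15 tested, 8 were higher and none lower after sulindac, against 8.32% and 9.1% of all genes. In adenoma against MIN, 2 were higher and 8 lower, against 18.5% and 20.1%, so the higher count did not exceed the share of all genes. The quinone reductase Nqo1 had means of 104 ± 19.1, 107 ± 29.4 and 423 ± 11.7 CPM in MIN, adenoma and sulindac organoids, and the carbonyl reductase Cbr1 of 318 ± 50.5, 90 ± 27.1 and 481 ± 51.1 CPM. The soluble epoxide hydrolase Ephx2 fell from 39.1 ± 15.4 CPM to 0.0286 ± 0.0289 CPM in adenoma and was at 0.533 ± 0.186 CPM after sulindac, which was called higher. Of 7 efflux transporters, 3 (Abcb1b, Abcc1 and Abcc4) were higher and 4 lower in adenoma than in MIN, against 18.5% and 20.1%. After sulindac none was lower and 5 were higher, against 9.1% and 8.32%. Among the last Abcb1a had means of 377 ± 59.2, 42.6 ± 6.16 and 364 ± 28.1 CPM in the 3 groups, Abcc2 of 300.3 ± 47.5, 2.98 ± 0.586 and 22.4 ± 1.84 CPM, and Abcc3 of 206 ± 67.8, 104 ± 23.2 and 535 ± 115 CPM.

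Of 12 regulators tested, 8 were lower in adenoma than in MIN and 1, Ahr, was higher, against 20.1% and 18.5% of all genes. Of 11 tested after sulindac, 1 was higher, Vdr, and 1 lower, Ppara, which is near the 8.32% and 9.1% of all genes. Ahr had means of 23.5 ± 1.5, 145 ± 20.3 and 134 ± 18.7 CPM in the same order. Nr1i3, which encodes CAR, went from 11.4 ± 2.85 CPM to 0.028 ± 0.0281 CPM, and the vitamin D receptor gene Vdr from 215 ± 39.4 CPM to 12 ± 1.15 CPM, with 22.6 ± 3.4 CPM after sulindac. Nr1i2, which encodes PXR, had means of 57 ± 3.02, 5.11 ± 0.343 and 4.65 ± 0.865 CPM in MIN, adenoma and sulindac organoids. This gene was called lower than in MIN in both adenoma groups. Nfe2l2, named for its role and not for its change, had means of 268 ± 25.3, 326 ± 15.3 and 344.5 ± 22.5 CPM and was not called in any comparison at the level of its RNA. The enterocyte marker sums given above moved with the losses in adenoma and did not return after sulindac. Members such as Gsta1, Gstm3 and Ugt1a7c were high again after sulindac. Others, such as Adh1, Sult1b1, Sult1d1, Ugt2b5 and Aldh1l1, stayed low like the markers. The part of enterocytes in these results was not tested.

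Genes that handle retinoids, the substrates of several ADH and ALDH enzymes, were counted last. Of 17 tested, 4 were higher and 8 lower in adenoma than in MIN, against 18.5% and 20.1% of all genes, so that the higher count is near the share of all genes. Of 12 tested after sulindac, 3 were higher and 1 lower, against 8.32% and 9.1%, and here the lower count is near it. Rbp2, the intestinal retinol carrier, had means of 124 ± 74.8, 0.198 ± 0.0315 and 0.716 ± 0.176 CPM, and Stra6, a retinol transporter, of 0.0324 ± 0.0287, 43.5 ± 10.8 and 9.22 ± 4.77 CPM. Rbp2 was thus lower in adenoma and higher after sulindac, and Stra6 higher in adenoma and lower after sulindac. Isx, which represses intestinal vitamin A uptake, had means of 167 ± 23.2, 36 ± 15.2 and 92.4 ± 6.22 CPM and was called in the same directions as Rbp2.

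**Figure D5:**
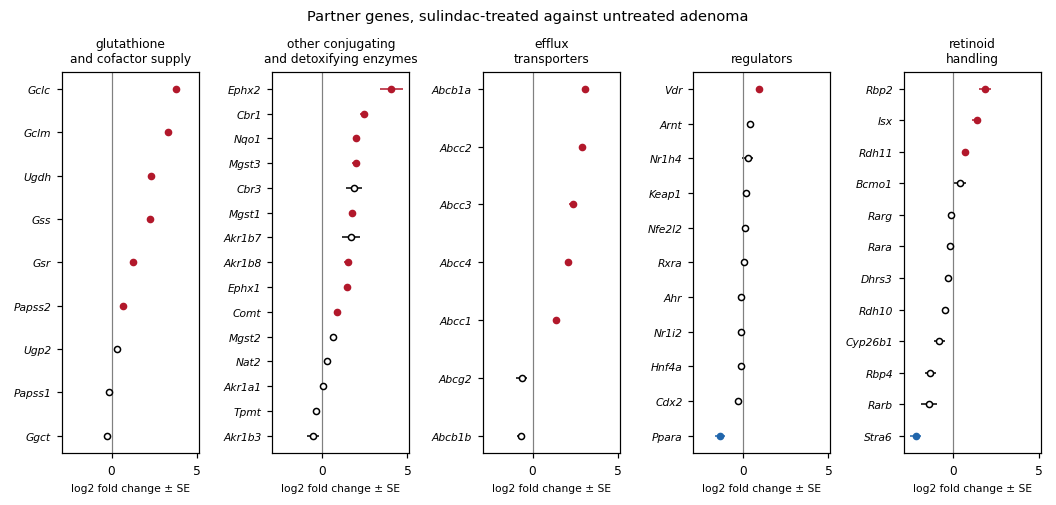
Log2 fold change ± SE after sulindac against untreated adenoma for the tested partner genes, by list; red and blue points were called higher and lower at an FDR of 1% and open points were not called. Gclc at 3.75, Ephx2 at 4.06 and Abcb1a at 3.10 lead the first 3 lists, while 9 of 11 regulators were not called. Ephx2 stayed under 1 CPM in both groups compared.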

How the data were processed

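Gene expression was measured by RNA-seq in MIN, adenoma and sulindac-treated adenoma organoids of the mouse, 3 samples each. The authors deposited raw counts per gene symbol, a table of 23955 rows without normalization. The submitters' processing notes name Bowtie2 2.2.4, RSEM and the mouse build mm9; RSEM divides reads that match several genes by estimation. MIN 1 has 2 sequencing runs and a column that is their sum in all 23955 rows. A chi-square of 1.19 per gene separated the runs, where replicates of a group gave 18.6 or more, and the sum was used as 1 sample. In 27 rows the symbol had become a date; these rows stayed in the fits. Samples were grouped by their titles.

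Members were matched by symbol. Each comparison was fitted on its own 2 groups in edgeR 4.0.16 (R 4.3.3), with filterByExpr, TMM scaling, robust glmQLFit and glmQLFTest, Benjamini-Hochberg adjustment over all genes tested and an FDR of 1%. Dividing the size of a log2 fold change by the root of its F statistic gave the SE. The script was tested on simulated counts. Counting intervals are exact binomial (Clopper-Pearson) at 95% and, like floors, cover counting error only. Depth of 30881206 to 48412477 counts per sample sets the floor of 3 counts.

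The members and lists were chosen with earlier results of these data known. Named with full values were Adh7, the 5 members with the largest change in each direction of each comparison (called, without overlap, at 1 CPM or more in a group), the 2 most abundant in each family, and 18 members called in both adenoma against MIN and sulindac against adenoma; values of other members were added after they were seen, to account for the rest. Of the partner genes, up to 3 per list and direction were named by log2 fold change among those called. Nfe2l2 and Nr1i2 were added for their role after their values were seen. The deviations of MIN and adenoma samples with the same number from their group means correlated at 0.137, 0.12 and 0.199 over 12195 genes. Those with different numbers correlated at -0.164 to 0.083. The numbers were therefore taken as a possible pairing of these samples, and a fit with a replicate block was an alternative to the unpaired main fit. Other alternatives were RLE scaling, library size alone, no low-count filter, 1 fit of all 9 samples, DESeq2 1.42.0, an FDR of 5% and leaving out each sample. Shared sequence was counted over 50-base stretches of GENCODE M21 transcripts, and levels per kilobase use the longest coding transcript there. The promoter windows are on GRCm38.p6, another build than that of the counts, and were matched by symbol.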

Additional observations from a re-analysis of the deposited data

How the results depend on the processing

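Under RLE scaling, library size alone, no low-count filter, 1 fit of all 9 samples, the replicate block, DESeq2 and an FDR of 5%, all 6 counts of members stayed within 1.5 times their value. Paired by the replicate block, 7 members were higher and 32 lower in adenoma than in MIN, 24 higher and 6 lower after sulindac than in untreated adenoma, and 21 higher and 25 lower after sulindac than in MIN. In the last 2 comparisons it was not settled whether same-numbered samples are paired. Same-numbered deviations correlated at 0.256, 0.214 and -0.099 for adenoma and sulindac, against -0.375 to 0.144 for different numbers. For MIN and sulindac they correlated at -0.043, 0.427 and 0.265, against -0.361 to 0.118 for different numbers. With each sample left out in turn, 3 to 7 members were higher and 29 to 34 lower in adenoma than in MIN, 21 to 28 higher and 3 to 6 lower after sulindac than in untreated adenoma, and 15 to 20 higher and 22 to 23 lower after sulindac than in MIN. Such fits have fewer samples. Of 1308 values of named members under alternatives, 1219 kept their side of the threshold, 71 lost the call and 18 gained it. Among values called in the main or the alternative fit, 0 changed direction. Direction was not compared where neither fit called the value. After sulindac, the calls of Aldh2, Aldh5a1, Aldh9a1, Gstp1 and Gstt2 were kept in 1 of the 6 left-out fits. Low counts limit Adh4, Aldh1a3, Aldh3a1, Aldh3b2, Gstk1, Gsto2, Sult4a1, Ugt2a3 and Ugt2b5, among others, in the low group. Shared sequence limits Gsta1, Gsta2, Gstp1, Gstp2 and the Ugt1a genes.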
